A study of Mus musculus with 12 samples.

Results

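The table of oocyte RNA held 54 genes whose symbols begin with Eif and the number of an initiation factor between 1 and 6, among 25162 genes. They were taken by symbol, leaving out Eif4enif1, Eif4e1b, Eif2ak3 and pseudogene symbols. The rule itself uses no measured value, but it was written with earlier results of these data known. Of the 54 genes, 49 had a mean of at least 1 FPKM (a fragment density scaled to transcript length and library size) over the 6 columns of the table and were compared, beside all 10110 genes that passed the same filter. The other 5 were Eif2ak2, Eif2c5, Eif2s3y, Eif4a3l1 and Eif4ebp2, and their levels are given below. A few of the symbols belong to genes that do other work: Eif4a3 encodes the helicase of the exon junction complex, and Eif1ad, Eif4a3l1 and Eif2c5 share a name or a domain with the family.

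The samples were mouse oocytes with Rnaseh1 deleted in the oocyte (labelled KO, headed Rnaseh1oo-/- in the table) and oocytes of the floxed control (labelled WT, headed Rnaseh1fl/fl), each at 3 stages labelled NGO, GO and FGO. The control therefore carries floxed alleles and is not an unmodified strain. The labels do not spell the stages out. They usually denote oocytes that are non-growing, that grow and that are fully grown. The sources used here give no Cre driver, strain or age of the mice. The labels list 12 samples, 2 for each genotype and stage, of 10 oocytes each with 100 pg of ERCC spike-in RNA, but the table has 1 column for each genotype and stage. Each value is therefore a single number with no replicate error, and no difference below has a replicate check. Since every column comes from pooled whole cells, fewer cells that express a gene and less of its RNA per cell cannot be told apart.

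The deposited FPKM were adjusted to the spike-in by the authors, so a column can be higher or lower as a whole. Differences are given on the log2(FPKM + 1) scale, KO minus WT or later stage minus earlier stage, and a gene is called where its difference reaches 1, which is 2-fold. This scale understates the change of genes of low level. Each difference was computed a second time with the overall scale of the columns evened out, by the median over genes of the ratio of a column to the geometric mean of all columns, and such values are called rescaled. The 1 was added after this scaling, so for genes of low level a shift on rescaling also reflects the added 1. At FGO the rescaling moved the median difference of all genes compared to 0.02, against 0.72 as deposited. Rnaseh1 had 0.931, 3.10 and 8.02 FPKM in KO oocytes at NGO, GO and FGO, against 8.61, 27.8 and 29.1 FPKM in WT oocytes. All 10 oocyte markers examined, among them Zp3, Gdf9 and Ddx4, were at 1 FPKM or more in every column.

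Initiation factors bring the small ribosomal subunit and the initiator tRNA to an mRNA, scan it for a start codon and then let the large subunit join. The eIF4F factors bind the cap and unwind the leader, eIF3 holds the small subunit, and eIF2 carries the initiator tRNA and is recharged by eIF2B unless a stress kinase has phosphorylated it. Oocytes store mRNAs while they grow and later depend on regulated translation of these stores, in which the cap-binding protein eIF4E and the proteins that bind it are known to take part.

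The upstream bases of 3 members are shown because their KO to WT differences at FGO, described further on, lie apart. As deposited, those of Eif4h and Eif2ak1 are past 2-fold and that of Eif1 is near 0. Rescaled, they are 0.98, 0.71 and -0.81, none of them past 2-fold. The sequences are RefSeq's on GRCm38.p6, the assembly behind mm10. Each covers the 150 bases before the annotated start, read 5′ to 3′ on the strand of the gene. Capitals mark matches on either strand to CACGTG (an E-box), GGGCGG (a GC box), CCAAT or TGACG (the core of a CRE), as far as they occur in the window.
Eif4h, chr5:134639410-134639559, minus strand: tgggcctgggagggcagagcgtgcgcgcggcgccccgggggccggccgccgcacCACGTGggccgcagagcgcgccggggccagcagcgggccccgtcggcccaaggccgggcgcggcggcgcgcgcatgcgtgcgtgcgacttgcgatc
Eif2ak1, chr5:143817642-143817791, plus strand: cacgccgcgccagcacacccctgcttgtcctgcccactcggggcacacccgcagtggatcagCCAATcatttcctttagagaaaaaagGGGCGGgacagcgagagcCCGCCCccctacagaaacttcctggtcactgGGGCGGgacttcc
Eif1, chr11:100319799-100319948, plus strand: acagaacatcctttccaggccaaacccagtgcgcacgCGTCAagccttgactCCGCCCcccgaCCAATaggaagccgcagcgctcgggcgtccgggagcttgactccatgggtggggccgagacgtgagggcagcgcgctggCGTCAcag
The windows of Eif2ak1 and Eif1 both hold a GC box and a CCAAT box, and that of Eif4h holds an E-box. Over the 250 bases before the start, 43 of the 54 members had an entry, and 30 of these (69.8%) held a GC box, against 59.3% of 8169 compared genes with an entry and 32.9% of all 27025 entries. A TGACG match stood before 18 members (41.9%, against 28.4% and 17.9%), a CCAAT match before 11 (25.6%, against 38.0% and 34.5%), a CCGGAAG match before 10 (23.3%, against 15.3% and 7.05%), a CACGTG match before 7 (16.3%, against 8.76% and 6.05%) and a TATAAA match before 4 (9.30%, against 6.33% and 13.0%). Both strands were searched, and matches of different motifs may overlap, since CACGTG and TGACG share end letters. The 43 members with an entry include all 5 that were not compared. Their shares therefore do not rest on the filter of the compared genes. These matches describe letters only.

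Transcripts of many translation factors are known to begin with a C followed by a run of pyrimidines, the 5′ terminal oligopyrimidine tract through which mTOR signalling acts on their translation. By the annotated start, a C followed by at least 4 pyrimidines opened 3 of the 43 members with an entry (6.98%), against 2.31% of compared genes and 2.49% of all entries. They were Eif2s3x, Eif3f and Eif2c5. The first 20 bases of the 2 of these that were expressed are shown because this start is what sets them apart from the other members, with the opening run of pyrimidines in capitals.
Eif2s3x, chrX:94212632-94212651, minus strand: CTTTTCTCTCCgagcaagat
Eif3f, chr7:108934415-108934434, plus strand: CTCTCTTTCTCggcaagatg
The opening runs of Eif2s3x and Eif3f are both 11 bases long, whereas Eif2b5 and Eif2ak4 have 4 pyrimidines and do not meet the rule.

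The levels of the members spread over more than 2 orders of magnitude within a column. By mean over the 6 columns, the highest were Eif3g with 334 FPKM, Eif4a1 with 244, Eif1b with 213, Eif3m with 185 and Eif4e3 with 163. Eif3g, a subunit of eIF3 with an RNA recognition motif, had 158, 299 and 591 FPKM in KO oocytes at NGO, GO and FGO, against 180, 354 and 423 FPKM in WT oocytes. With 1 value per column, neighbours in this order cannot be told apart by a spread. All 54 members together took between 0.874% and 0.996% of the summed FPKM of a column, so their summed share was close to 1% in every column.

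At the other end stood genes that gave little or no signal in any column. Eif2s3y, the Y-linked gene for the gamma subunit of eIF2, was listed at 0 in all 6 columns, while its X-linked partner Eif2s3x had 25.4, 45.6 and 63.9 FPKM in KO oocytes and 22.1, 37.1 and 39.8 FPKM in WT oocytes at NGO, GO and FGO. Eif2ak2, the double-stranded RNA-activated kinase PKR, stayed at or below 0.0618 FPKM. Eif2c5 was listed at 0 throughout, and Eif4a3l1 reached at most 0.129 FPKM. Among the 3 genes for eIF4E-binding proteins, which keep eIF4E from the eIF4G scaffold, Eif4ebp1 was highest with 10.9 to 17.0 FPKM in KO columns and 4.91 to 16.5 FPKM in WT columns. Eif4ebp2 ranged from 0.378 to 1.04 FPKM in KO columns and from 0.260 to 0.930 FPKM in WT columns. Eif4ebp3 ranged from 0.536 to 1.09 FPKM in KO columns and from 0.665 to 1.73 FPKM in WT columns, and its transcript matches the coding gene AC115631.1 over 67.7% of its length, so its reads may be shared.

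**Figure D1:**
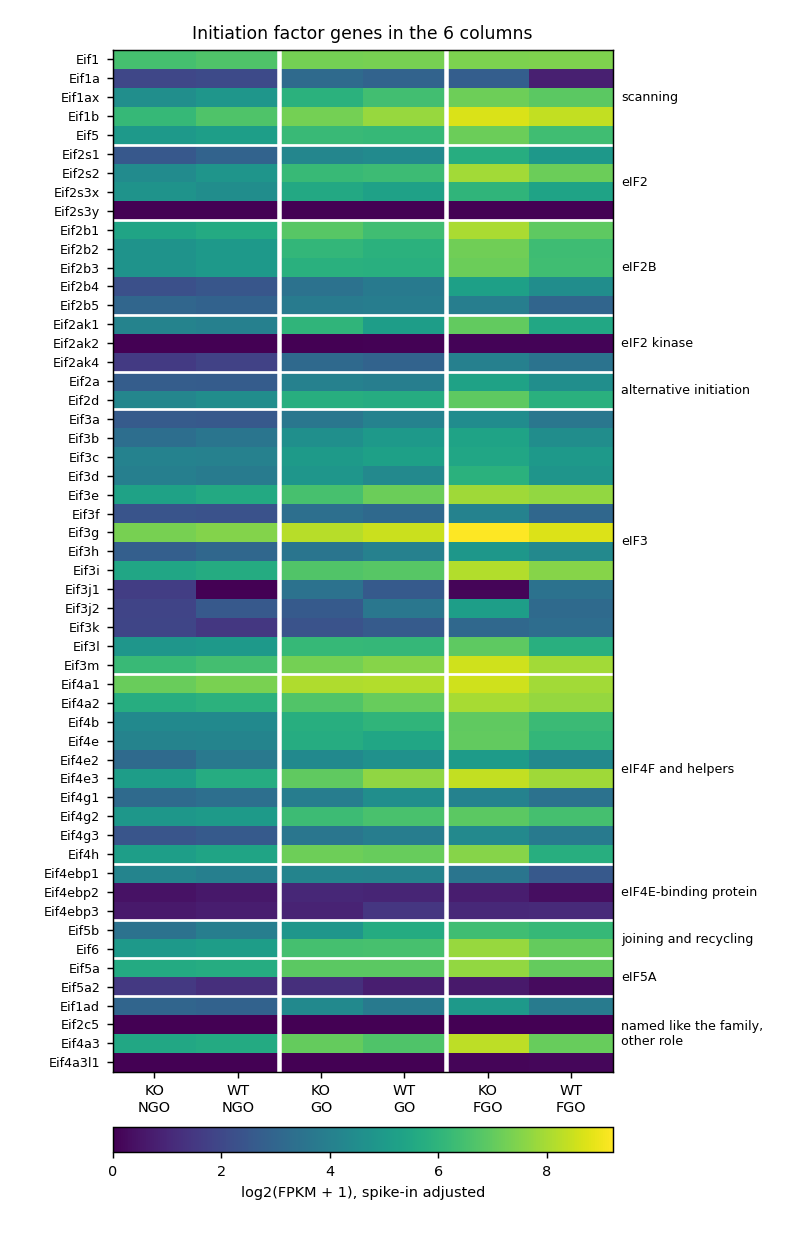
Level of each of the 54 members as log2(FPKM + 1) in colour, with genes in rows grouped by role and the 6 columns from NGO to FGO, KO left of WT at each stage. The brightest cell is Eif3g in KO at FGO (591 FPKM), and the rows of Eif2s3y and Eif2c5 are at 0 throughout.

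Subunits of one complex did not have like levels. Among the 14 eIF3 genes, Eif3g was the highest in all 6 columns, 72.7 times the lowest (Eif3k) in KO at GO, 70.3 times the lowest (Eif3j1) in WT at GO and 57.5 times the lowest (Eif3f) in WT at FGO. In KO at NGO, WT at NGO and KO at FGO the lowest was Eif3j1, and Eif3g was 72.8, 7656 and 6025 times as high. The split of reads between Eif3j1 and Eif3j2 is uncertain, as given further on, and so are the ratios to Eif3j1. In eIF2, Eif2s1, the alpha subunit that the stress kinases phosphorylate, was the lowest of the 3 expressed subunit genes in every column, between 3.87 and 5.27 times below the highest. Within eIF2B, the exchange factor of eIF2, Eif2b1 was the highest in every column, and the lowest was Eif2b4 at NGO and GO and Eif2b5 at FGO, in KO and WT alike. These ratios stay the same under any scaling of a whole column.

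Ratios of related genes inside a column are also free of the column's scale, and several moved with growth in both genotypes. Eif1b relative to Eif1, both genes for factors that guard start codon choice, stood at 0.796, 1.005 and 2.43 in KO oocytes at NGO, GO and FGO, against 0.9998, 1.39 and 1.89 in WT oocytes. Eif4a1 relative to Eif4a2, paralogous helicases of eIF4F, stood at 2.60, 2.66 and 1.43 in KO and at 2.73, 2.14 and 1.15 in WT. In both pairs the gene that was level or behind at NGO gained on its partner by FGO, in KO and in WT. Eif1 and Eif4a1 have close copies, given further on, so their reads may be shared. Eif4g1 relative to Eif4g3, genes for the scaffold that joins cap, helicase and ribosome, stood at 1.82, 1.23 and 0.821 in KO and at 1.82, 1.62 and 0.794 in WT, so Eif4g3 was the more abundant of the 2 at FGO in both genotypes.

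The cap-binding genes and their inhibitor also shifted against each other. Eif4e relative to Eif4ebp1 stood at 0.993, 2.98 and 11.7 in KO oocytes at NGO, GO and FGO, against 1.13, 2.62 and 13.6 in WT oocytes. The 2 transcripts were thus near parity at NGO and the cap-binding gene was the more abundant by over 10-fold at FGO, in both genotypes. Eif4e2, whose product binds caps without binding eIF4G, stood at 0.493, 0.386 and 0.255 of Eif4e in KO and at 0.733, 0.554 and 0.289 in WT. Eif4g2, whose product lacks the eIF4E-binding site of eIF4G, stood at 3.49, 5.599 and 7.37 times Eif4g1 in KO and at 3.38, 4.13 and 8.78 times in WT. Eif5a2 had 1.91, 1.39 and 0.566 FPKM in KO and 1.35, 0.724 and 0.218 FPKM in WT, against 48.0, 117 and 207 FPKM of Eif5a in KO and 51.0, 117 and 131 FPKM in WT, so the Eif5a to Eif5a2 ratio was 365 in KO and 601 in WT at FGO.

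Some ratios lay on the same side of WT at all 3 stages. Those of Eif4e3 and Eif4e2 to Eif4e, of Eif1ax to Eif1a and of Eif5a to Eif5a2 were lower in KO each time. The other ratios of pairs given here changed sides between stages. The ratios to Eif4e share that gene and are not independent. Eif1a and Eif5a2 had only 0.744 and 0.218 FPKM in WT at FGO. With 1 value per column no spread of a ratio is known. Eif4e3, an atypical cap-binding protein, stood at 2.05, 2.46 and 2.56 times Eif4e in KO oocytes at NGO, GO and FGO, against 3.01, 4.77 and 3.57 times in WT oocytes. Eif4e3 itself had 33.8, 124 and 325 FPKM in KO and 50.4, 206 and 238 FPKM in WT. Eif4e had 16.5, 50.6 and 127 FPKM in KO, against 16.7, 43.2 and 66.7 FPKM in WT. The gene spans of Eif4e3 and Gpr27, introns included, overlap over 507 bases, and the library kit does not mark strand. Whether exons of both lie in the overlap was not examined, so any sharing of reads is not known. Gpr27 had at most 4.88 FPKM in KO columns and 6.12 FPKM in WT columns.

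**Figure D2:**
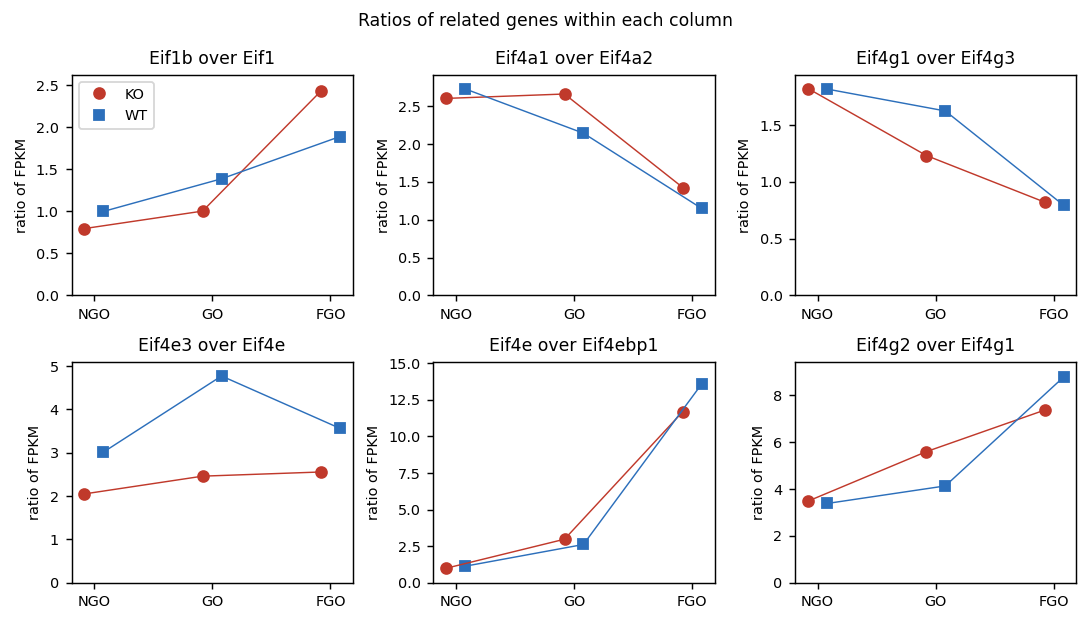
FPKM ratio of 6 pairs of related genes within each column, with stages on the horizontal axis, KO as red circles and WT as blue squares, 1 value per point and lines that only join the points of a genotype. The Eif4e over Eif4ebp1 panel climbs to 11.7 in KO and 13.6 in WT at FGO, and in the Eif4e3 over Eif4e panel KO lies below WT at all 3 stages.

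At NGO, KO and WT columns were close to each other for almost all members. Only Eif3j1 was higher past 2-fold in KO (1 of 49 members, against 0.0297% of all genes compared) and none was lower past 2-fold (0.326% of all genes). The median difference was -0.18 over the members and -0.11 over all genes. Of the 49 members 35 were below 0 and 14 above (28.6%, against 29.6% of all genes above 0). After rescaling the members' median was -0.02 and that of all genes 0.01, and Eif3j1 was again the only call, with 0.129% of all genes higher and 0.356% lower. The other largest values were small. Eif3k, an eIF3 subunit, had 2.78 FPKM in KO and 1.78 in WT (difference 0.44). Eif4e3 (-0.56), Eif4e2 (-0.54), Eif1b (-0.53) and Eif5b (-0.46) had the most negative values beside Eif3j2.

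At GO the difference of no member was past 2-fold except that of Eif3j2, which was lower in KO (1 of 49 members, against 2.03% of all genes), and none was higher (0.95% of all genes). After rescaling no member was past 2-fold in either direction, against 1.05% of all genes higher and 1.28% lower. The members' median difference was -0.07 and that of all genes -0.09. Eif2ak1, the heme-regulated kinase HRI that phosphorylates eIF2, came nearest to the threshold on the higher side with 64.9 FPKM in KO and 34.3 FPKM in WT, a difference of 0.90 as deposited and 0.97 rescaled. With equal column totals it was 1.01 and passed. Eif5b, the GTPase that joins the large subunit, had 27.7 FPKM in KO and 49.5 FPKM in WT (-0.82, rescaled -0.74). Eif4g1 had 13.98 FPKM in KO and 22.6 FPKM in WT (-0.66, rescaled -0.58), and Eif3e had 91.7 FPKM in KO and 141 FPKM in WT (-0.62, rescaled -0.54). All 3 of these stayed under 2-fold with either scale, so none is called. The gene span of Eif5b, introns included, overlaps that of Rev1 over 2794 bases, so reads of Eif5b may include some of Rev1. Rev1 had 13.2 FPKM in KO and 15.2 FPKM in WT at GO.

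At FGO most members were higher in KO as deposited, as were most genes of the table. Of the 49 members, 12 were higher past 2-fold (24.5%, against 25.8% of all genes compared) and 1 was lower (0.158% of all genes). The 12 were Eif1a, Eif1ad, Eif2ak1, Eif2b1, Eif2d, Eif3d, Eif3f, Eif3j2, Eif3l, Eif4a3, Eif4ebp1 and Eif4h, and the 1 lower was Eif3j1. A share of 24.5% lies near the background, and the members' median difference of 0.71 lies near that of all genes, 0.72. In all, 45 members lay above 0 (91.8%, against 95.4% of all genes), and the 4 below it were Eif1, Eif3j1, Eif3k and Eif4ebp3. After rescaling, Eif1a and Eif3j2 were higher past 2-fold (2 of 49, against 1.68% of all genes) and Eif3j1 was lower (against 0.94%), with a members' median of -0.04. Summed over the members, FPKM reached 6415 in KO and 4119 in WT, a ratio of 1.56 as deposited and 0.901 rescaled, so the direction of the sum flips with the scale.

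Granulosa cell markers moved with the FGO columns as well. Their 13 genes summed to 42.1 FPKM in KO and 14.8 FPKM in WT at FGO. At GO they summed to 4.84 FPKM in KO and 9.03 FPKM in WT, and at NGO to 4.96 FPKM in KO and 2.35 FPKM in WT. At FGO 7 of the 13 were at 1 FPKM or more in KO and 4 of the 13 in WT. The largest were Cyp19a1 with 10.4 FPKM in KO and 6.16 FPKM in WT, Inha with 9.32 FPKM in KO and 1.17 FPKM in WT, and Gja1 with 6.96 FPKM in KO and 0.965 FPKM in WT. Hsd17b1 had 3.71 FPKM in KO and 0.845 FPKM in WT. The defining markers Amh and Foxl2 had 0.282 and 0 FPKM in KO and 0.0206 and 0.0130 FPKM in WT. Theca and stroma markers summed to less than 1 FPKM in every column, and 4 blood and immune markers to 1.96 FPKM in KO and 1.10 FPKM in WT at FGO. The part of these markers in the members' FGO differences was not tested.

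**Figure D3:**
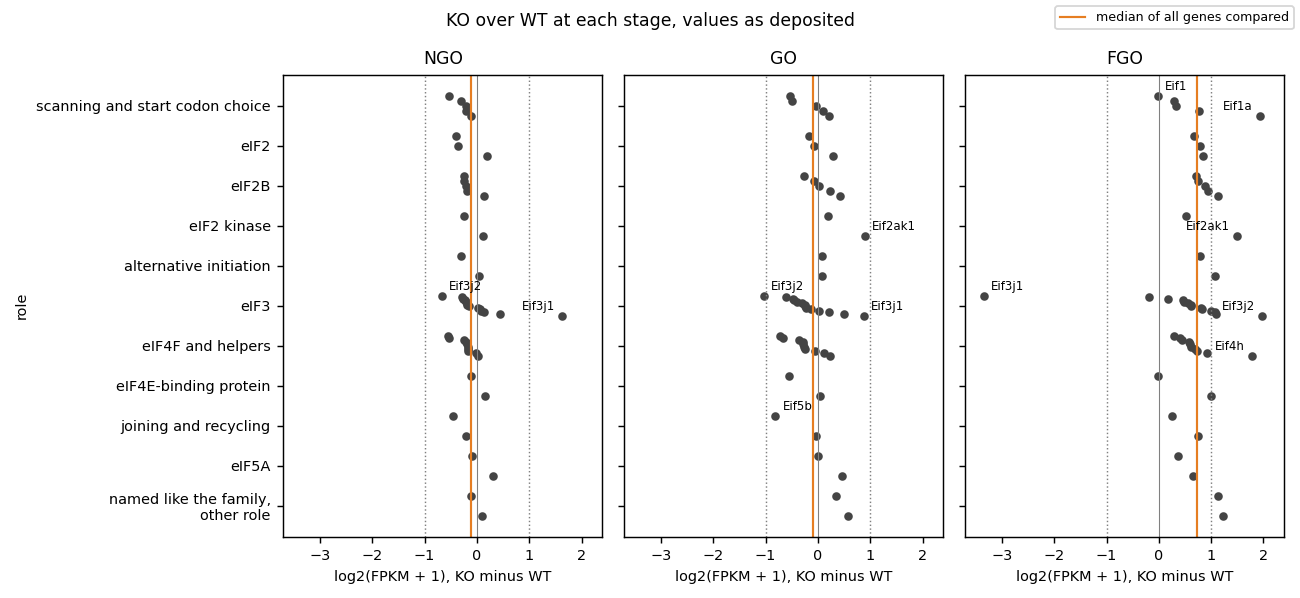
Difference of log2(FPKM + 1), KO minus WT, for the 49 compared members at each stage, 1 point per gene, with roles down the page, dotted lines at 2-fold and an orange line at the median of all genes compared. At FGO the points gather around that median (0.72), with Eif3j1 far to the left (-3.35) and Eif1a, Eif4h and Eif3j2 at the right.

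Among the scanning factors at FGO, Eif1 and Eif1a stood at opposite ends. Eif1 had 88.5, 154 and 168 FPKM in KO oocytes at NGO, GO and FGO, against 102, 157 and 172 FPKM in WT oocytes. The KO and WT values at FGO were nearly the same as deposited (difference -0.03), which put Eif1 0.81 below after rescaling. Eif1b had 70.5, 155 and 410 FPKM in KO, against 102, 219 and 325 FPKM in WT, a difference of 0.34 at FGO that becomes -0.45 rescaled. Eif1a had 2.86, 7.98 and 5.67 FPKM in KO, against 3.16, 6.71 and 0.744 FPKM in WT. Eif1a was thus higher in KO at FGO by a factor of 7.62 in FPKM, by 1.94 on the log2 scale and by 1.16 rescaled. Eif1a has a partial copy, given further on, and its reads may be shared. Its X-linked paralogue Eif1ax, which encodes the same factor, eIF1A, had 22.1, 58.4 and 144 FPKM in KO, against 27.7, 85.6 and 118 FPKM in WT. Eif1ax made up most of the eIF1A transcripts in every column, with a ratio to Eif1a of 7.73, 7.32 and 25.4 in KO and of 8.77, 12.8 and 159 in WT. The sum of both genes at FGO was 150.0 FPKM in KO and 119 FPKM in WT. Eif5, whose product makes eIF2 hydrolyse its GTP at the start codon, had 30.1, 75.1 and 139 FPKM in KO and 34.8, 70.1 and 81.8 FPKM in WT, a difference of 0.76 at FGO and of -0.02 rescaled.

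Around eIF2, the kinase gene Eif2ak1 had larger KO to WT differences at GO and FGO than the subunit and exchange factor genes, but not at NGO. Eif2ak1 had 16.4, 64.9 and 127 FPKM in KO oocytes at NGO, GO and FGO, against 15.0, 34.3 and 44.6 FPKM in WT oocytes. The KO to WT difference of Eif2ak1 came to 0.12, 0.90 and 1.49 at these stages, and to 0.30, 0.97 and 0.71 after rescaling. It was above 0 at all 3 stages with both, and past 2-fold at FGO as deposited. It overlaps Ankrd61 over 4431 bases, and that gene had at most 0.00840 FPKM in any column. Eif2ak4, the kinase GCN2 that responds to uncharged tRNA, had 1.94, 7.80 and 15.3 FPKM in KO and 2.502, 6.67 and 10.4 FPKM in WT, with a difference of 0.52 at FGO that becomes -0.20 rescaled. The sum of Eif2ak1, Eif2ak2 and Eif2ak4 was 1.05, 1.77 and 2.59 times as high in KO as in WT at NGO, GO and FGO, and 1.19, 1.87 and 1.497 times after rescaling.

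At FGO the KO to WT differences of the eIF2 subunit genes lay near the median of all genes. Eif2s1 had 4.82, 17.7 and 52.8 FPKM in KO and 6.71, 20.1 and 29.0 FPKM in WT, and Eif2s2, the beta subunit, had 20.6, 73.3 and 243 FPKM in KO and 26.7, 77.7 and 140 FPKM in WT. Their differences at FGO were 0.84 and 0.79 as deposited and 0.07 and 0.00 rescaled. Of the 5 eIF2B genes 1 passed 2-fold at FGO, Eif2b1, with 263 FPKM in KO and 120 FPKM in WT (1.12, rescaled 0.34). Eif2b5, the catalytic subunit, had 7.18, 13.3 and 14.2 FPKM in KO and 6.47, 14.1 and 6.98 FPKM in WT, a difference of 0.93 at FGO (rescaled 0.20). Eif2d, which can place tRNA on the ribosome without eIF2, had 119 FPKM in KO and 56.1 FPKM in WT at FGO (1.07, rescaled 0.29). The gene span of Eif2d, introns included, overlaps that of Rassf5 over 11250 bases. Rassf5 had 53.1 FPKM in KO and 29.1 FPKM in WT at FGO. Whether exons of both lie in the overlap was not examined, so any sharing of reads is not known.

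In eIF3, the KO to WT differences of Eif3j1 and Eif3j2 had opposite signs at all 3 stages. Both genes encode the loosely bound j subunit, which helps the small subunit leave and rejoin. Eif3j1 had 2.17, 10.1 and 0.0980 FPKM in KO oocytes at NGO, GO and FGO, against 0.0235, 5.04 and 10.2 FPKM in WT oocytes. Eif3j2 had 2.71, 5.04 and 34.4 FPKM in KO, against 4.93, 11.4 and 8.01 FPKM in WT. Where 1 copy was low in a genotype, the other held nearly all of the pair's signal. The longest transcript of Eif3j2 matches that of Eif3j1 at 99.4% identity over its whole length of 2379 bases, so the split of reads between them is uncertain. Summed, the pair had 4.89, 15.2 and 34.5 FPKM in KO, against 4.96, 16.5 and 18.2 FPKM in WT. The KO to WT ratio of this sum was 0.986, 0.922 and 1.89, and 1.12, 0.972 and 1.10 after rescaling, so none of the KO to WT calls on either copy holds for the pair. Over the stages the sum rose by 1.46 at GO over NGO in KO and by 1.55 in WT, and by 1.13 at FGO over GO in KO, while in WT that last step was 0.14. Rescaled, these 4 steps of the sum were 0.18, 0.37, 0.28 and 0.12.

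The other 12 eIF3 genes had differences between -0.19 (Eif3k) and 1.09 (Eif3l) at FGO as deposited, and between -0.82 and 0.31 rescaled. As deposited at FGO, Eif3d, Eif3f and Eif3l were higher past 2-fold in KO than in WT. They had 58.6, 15.7 and 120 FPKM in KO, against 27.2, 7.36 and 55.5 FPKM in WT. Eif3d takes part in cap binding in some mRNAs, and Eif3l and Eif3f are subunits outside the core that yeast shares. Rescaled, their differences were 0.30, 0.27 and 0.31, which are under 2-fold. Eif3a, the large scaffold subunit, had 5.20, 11.4 and 21.2 FPKM in KO and 4.88, 16.1 and 11.7 FPKM in WT (0.81 at FGO, rescaled 0.06). Eif3e had 236 FPKM in KO and 210 FPKM in WT at FGO, and Eif3k had 7.65 FPKM in KO and 8.85 FPKM in WT. These 2 lay below the median of all genes, with 0.17 and -0.19 as deposited and -0.62 and -0.82 rescaled. The eIF3 genes summed to 405, 849 and 1850 FPKM in KO and to 457, 1007 and 1263 FPKM in WT at NGO, GO and FGO.

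Of the 10 genes of eIF4F and its helpers, Eif4h alone passed 2-fold between KO and WT at any stage. Eif4h, an RNA-binding helper of the eIF4A helicase, had 34.7, 144 and 185 FPKM in KO oocytes at NGO, GO and FGO, against 40.5, 133 and 53.5 FPKM in WT oocytes. The KO and WT values were close at NGO and GO and lay apart at FGO, where KO was 3.46 times as high in FPKM. The log2 difference at FGO was 1.77, and 0.98 after rescaling, just under 2-fold. No near-identical copy of Eif4h and no overlapping gene was found. Its partner in function Eif4b had 122 FPKM in KO and 75.7 FPKM in WT at FGO, a difference of 0.68 that becomes -0.10 rescaled. Eif4a1 had 137, 273 and 368 FPKM in KO and 163, 282 and 244 FPKM in WT (0.59 at FGO, rescaled -0.19). Eif4g1 had 15.95 FPKM in KO and 10.1 FPKM in WT at FGO (0.61, rescaled -0.12).

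Of the inhibitors, Eif4ebp1 was higher in KO than in WT at FGO as deposited, though its level fell from GO to FGO in both genotypes. It had 10.9 FPKM in KO and 4.91 FPKM in WT at FGO, a difference of 1.01 that becomes 0.29 rescaled. Eif6, which keeps the large subunit free until it joins, had 29.5, 89.5 and 218 FPKM in KO and 34.3, 92.1 and 129 FPKM in WT (0.75 at FGO, rescaled -0.04). Eif5b had 83.2 FPKM in KO and 70.3 FPKM in WT at FGO, a difference of 0.24 that becomes -0.53 rescaled. Eif5a, the hypusine-bearing factor now known for elongation, differed by 0.65 at FGO (rescaled -0.13). Of the members with other roles, Eif4a3 had 315 FPKM in KO and 134 FPKM in WT (1.22, rescaled 0.43), and Eif1ad had 30.2 FPKM in KO and 13.2 FPKM in WT (1.14, rescaled 0.37). Eif4a3 has 3 copies in the genome annotation, Gm5576, Gm5580 and Gm8994. Each matches over 50% of its transcript, at 95.6% to 96.8% identity, so its values are uncertain. Copies matched over 150 bases were found for 17 members, and over 50% of the transcript for 4. Eif4a1 matches Eif4a-ps4 at 99.9% over 1231 bases, Eif2s3x matches Gm2223 at 100% over 1350 bases, and Eif1 matches Gm10157 at 98.3% over 342 bases. The longest match of Eif1 was to the coding gene Emd, at 96.7% over 658 bases. Eif1a matches the coding gene Gm8332 at 95.2% over 434 bases, which is 15.1% of its transcript. Reads of these members, as of the others with a copy, may be shared too.

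**Figure D4:**
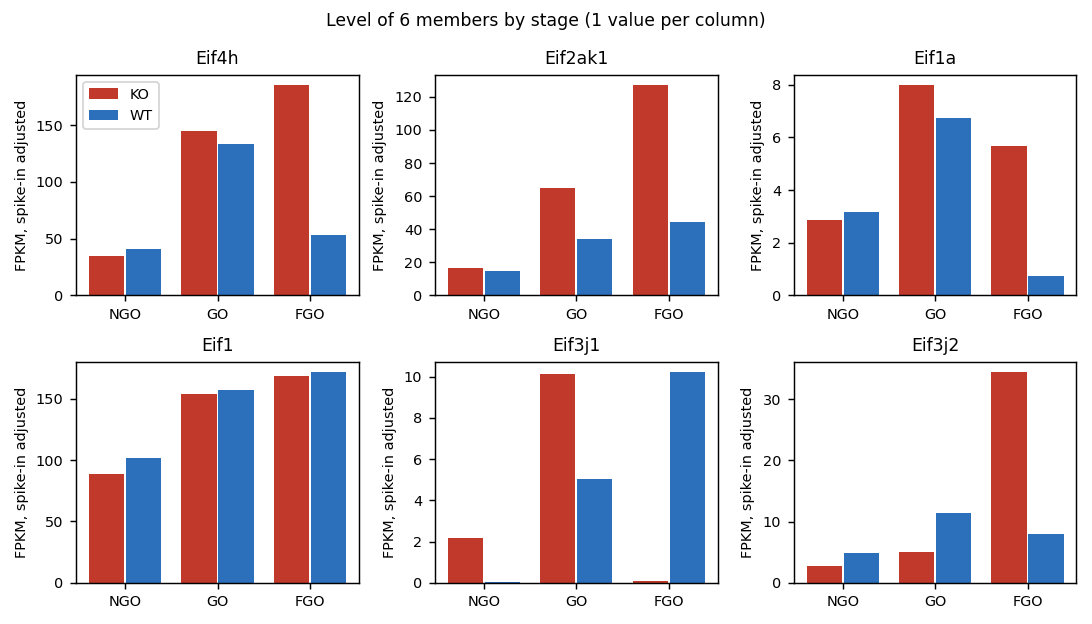
FPKM of 6 members by stage, KO in red left of WT in blue, 1 value per bar. Eif4h and Eif1a have close bars at NGO and GO and a low WT bar at FGO (53.5 and 0.744 FPKM), Eif1 has like bars at every stage, and the tall bars of Eif3j1 and Eif3j2 at FGO belong to opposite genotypes.

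Across growth, levels as deposited rose at the first step and then parted by genotype. Of the 49 members, 33 rose past 2-fold at GO over NGO in KO (against 57.6% of all genes) and 33 in WT (against 54.8%), and none fell (0.089% and 0.129% of all genes). The members' median was 1.22 in KO and 1.14 in WT, against 1.10 and 1.06 over all genes. After rescaling none rose past 2-fold in KO (5.37% of all genes) and 1, Eif3j1, rose in WT (6.06%), while Eif4ebp1 and Eif5a2 fell in both (2 of 49 each, against 2.59% in KO and 3.27% in WT). Eif4ebp1 had 17.0 FPKM at GO and 16.6 FPKM at NGO in KO, and 16.5 FPKM at GO and 14.8 FPKM at NGO in WT. Its level per spike-in was thus nearly flat while most members rose, and the rescaled difference was -1.34 in KO and -1.11 in WT. The members' rescaled median was -0.11 in KO and -0.13 in WT, against -0.02 and -0.01 over all genes.

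From GO to FGO the KO and WT columns took different courses. In KO, 23 of the 49 members rose past 2-fold (against 39.0% of all genes) and 1, Eif3j1, fell (0.514%). In WT no member rose (6.5% of all genes) and 4 fell (8.16%, against 9.22%), namely Eif1a (-2.14 on the log2 scale), Eif4ebp1 (-1.57), Eif4h (-1.296) and Eif4g1 (-1.09). After rescaling the same 4 fell in WT (-1.98, -1.54, -1.31 and -1.09), against 8.33% of all genes, and none rose, against 5.78%, and 1 rose and 3 fell in KO, namely Eif3j2 and then Eif1a, Eif3j1 and Eif4ebp1, against 6.42% and 3.66%. The members' median step was 0.96 in KO and 0.22 in WT, against 0.84 and 0.08 over all genes. Eif2s2 and Eif2b4 had the largest positive steps in WT beside Eif3j1, 0.85 and 0.78, and in KO they rose by 1.72 and 1.76. These steps share the FGO columns with the KO to WT comparison at FGO and are not independent of it.

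The sign of the last step as deposited differed between genotypes for 15 members, and most of these signs depended on the scale. As deposited, above 0 in KO and below 0 in WT were 14 of 49 (28.6%, against 34.9% of all genes): Eif2b5, Eif3a, Eif3b, Eif3c, Eif3f, Eif3j2, Eif3l, Eif4a1, Eif4e2, Eif4ebp3, Eif4g1, Eif4g2, Eif4g3 and Eif4h. Rescaled, 2 of 49 had this pattern (4.08%, against 8.17%), Eif3a and Eif3j2, and the other 12 of the 14, with all 3 genes named Eif4g among them, were below 0 in both genotypes. Eif3j1 alone had the reverse pattern as deposited, and rescaled 5 of 49 did (10.2%, against 9.39%). As deposited a further 31 were above 0 in both (63.3%, against 54.7%), among them all 3 expressed eIF2 subunit genes, and 3 were below 0 in both (6.12%, against 10.1%), Eif1a, Eif4ebp1 and Eif5a2. Of the compared members 41 had their highest value in KO at FGO as deposited (83.7%, against 80.5% of all genes), and 10 did so rescaled (20.4%, against 16.8%). The exceptions as deposited were Eif1, Eif3j1 and Eif3k in WT at FGO, Eif1a and Eif4ebp1 in KO at GO, Eif4ebp3 and Eif4g1 in WT at GO, and Eif5a2 in KO at NGO.

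**Figure D5:**
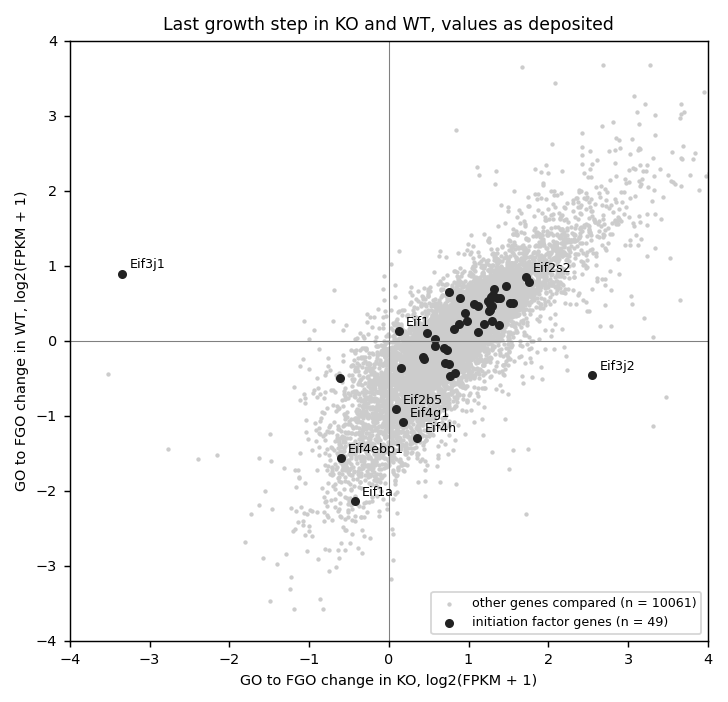
Difference of log2(FPKM + 1) at FGO over GO in KO (horizontal) and WT (vertical), 1 point per gene, the 49 members in black over the other compared genes in grey, with 19 genes outside the axis limit of 4 not shown. Most members lie inside the grey cloud, while Eif3j1 (-3.34 in KO, 0.89 in WT) and Eif3j2 (2.55 in KO, -0.46 in WT) lie toward opposite sides. Other genes lie further out than Eif3j2 in its direction, such as Amd1 (3.32 in KO, -1.14 in WT).

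Genes that work with the initiation factors but carry other names mostly followed the whole table at FGO. As deposited, all 27 had positive KO to WT differences, as did 95.4% of all genes compared. Of these 27 partners, 10 were higher past 2-fold in KO (37.0%, against 25.8% of all genes) and none was lower (0.158%), with a median of 0.82. After rescaling 1 was higher (3.70%, against 1.68%) and the median was 0.09, with 19 of the 27 above 0 (70.4%, against 52.1%). The largest difference was that of Impact, an inhibitor of GCN2 activation, with 8.43 FPKM in KO and 1.68 FPKM in WT (1.81, rescaled 1.05). It was followed by Bzw1, an eIF5 mimic, with 98.1 FPKM in KO and 32.9 FPKM in WT (1.55, rescaled 0.76), Abce1, the ribosome recycling ATPase, with 15.7 FPKM in KO and 4.95 FPKM in WT (1.49, rescaled 0.73), and the oocyte poly(A)-binding gene Pabpc1l with 196 FPKM in KO and 85.3 FPKM in WT (1.19, rescaled 0.41). At NGO and GO none of the 27 was past 2-fold in either direction. Of 13 compared elongation and termination genes, 3 were higher at FGO as deposited (23.1%, against 25.8%), Eefsec, Dohh and Eef2k, with a median of 0.75, and none after rescaling. Eefsec, the selenocysteine elongation factor, had 30.8 FPKM in KO and 15.2 FPKM in WT at GO (0.97, rescaled 1.03) and 62.5 FPKM in KO and 21.4 FPKM in WT at FGO. Of this list Eef1a2 was listed at 0 in every column and not compared.

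Transcript length was set beside the differences, because short and long genes can behave differently in amplified cDNA. Across the 49 members, Spearman's rho of transcript length with the rescaled KO to WT difference came to 0.03, 0.01 and -0.06 at NGO, GO and FGO, against 0.20, 0.11 and 0.04 across 9941 genes with a length. For the step from NGO to GO, rho among the members was 0.31 in KO and 0.40 in WT, against 0.08 and 0.11 across all genes. Genes of a sample share its library and are no independent replicates, so these values are given as a description.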

How the data were processed

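Polyadenylated RNA of mouse oocytes was measured with Smart-seq2 from 500 pg of cDNA, per the labels, and read as unstranded 150 bp pairs. The submitters' processing notes name HISAT2 2.2.1, Trim Galore 0.6.7, the build mm10 and Cufflinks 2.2.1. The deposited FPKM were adjusted by the authors to the ERCC spike-in. The sources used here do not give the formula, nor whether a column is a mean, a pool or 1 sample. Read depth is unknown, and since the values are model estimates with no smallest step, whole reads could not be recovered. Intervals and limits of detection are therefore not given.

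The table held 25912 lines for 25164 symbols. The 2 lines with spreadsheet error marks were left out, and for the 333 symbols on several lines, none of them a member, the line of largest mean was kept. Groups were the 6 genotype and stage columns, compared in 7 ways on log2(FPKM + 1) with a mean of at least 1 FPKM. The design foresaw linear models in limma for per-sample columns. With 1 column per group no test was possible, and differences were called at 2-fold as deposited and after median-ratio scaling. The scaling factors were 0.453, 1.22 and 2.26 for KO and 0.514, 1.29 and 1.31 for WT at NGO, GO and FGO. The calling steps were run on simulated data with planted changes larger than the call threshold and a noise that was set, not estimated. This checks the code only and says nothing of the error of calls in these data. The alternatives tried were equal column totals, the median-ratio scaling, a pseudocount of 0.1, a minimum mean of 5 FPKM, no filter, symbols on 1 line only and, chosen after seeing the data, Eif3j1 and Eif3j2 summed.

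The naming rule took fixed members of each role, the 5 largest and 5 smallest differences of each stage, 3 in each direction of each WT step, the 5 highest means and the paralogue pairs, which gave 38 named genes. Other genes are named where they were called, shared a pattern or stood in a count. The members, lists and rule were chosen with earlier results of these data known. Copies were searched in GENCODE M21 transcripts with blastn 2.17.0 over at least 150 bases at an identity of 95% or above, and coordinates, overlaps and sequences came from RefSeq on GRCm38.p6. Overlaps were taken between whole gene spans, introns included. Software was Python 3.11.15 with numpy 2.4.6, pandas 2.3.3, scipy 1.17.1 and matplotlib 3.10.9.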

Additional observations from a re-analysis of the deposited data

Results flagged for a closer look

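Eif3j1 and Eif3j2 differed in opposite directions between KO and WT at each stage and at FGO over GO in each genotype, though at GO over NGO both were above 0 in both genotypes as deposited. None of these differences was tested, since each group had 1 column. At FGO over GO, Eif3j1 changed by -3.34 in KO and by 0.89 in WT (rescaled -3.15 and 0.84), while Eif3j2 changed by 2.55 in KO and by -0.46 in WT (rescaled 1.66 and -0.47). In KO over WT, Eif3j1 differed by 1.63 at NGO, 0.88 at GO and -3.35 at FGO (rescaled 2.47, 0.92 and -3.08). Eif3j2 differed by -0.68 at NGO, -1.04 at GO and 1.97 at FGO (rescaled -0.60, -0.94 and 1.19). The transcripts of these copies match at 99.4% identity over the whole of Eif3j2, and the part of read assignment in the result was not tested. The 2 genes summed differed between KO and WT by -0.02 at NGO, -0.11 at GO and 0.89 at FGO.

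Eif4h was picked out because KO lay below WT at NGO (-0.22, rescaled -0.04) and above it at FGO (1.77, rescaled 0.98). This change of the difference between stages was not tested either. As deposited such signs are common, with 35 of 49 members below 0 at NGO and 45 above 0 at FGO. Of all 10110 genes compared, 7090 were below 0 at NGO and 9649 above 0 at FGO. The NGO value of Eif4h is near the members' median of -0.18.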

How the results depend on the processing

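No paired analysis was possible because the columns carry no replicate numbers and the results come from no test. With 1 column per genotype and stage no sample could be left out. The counts of members past 2-fold depended on the scale. At FGO, KO and WT differed in 13 members as deposited, in 3 with median-ratio scaling (2 higher, 1 lower) and in 4 with equal column totals (3 higher, 1 lower). At GO the count was 1 as deposited, 0 with median-ratio scaling and 0 with Eif3j1 and Eif3j2 summed. At NGO the 1 call became 0 with a mean of at least 5 FPKM and 0 with the pair summed. For GO over NGO, 33 calls in KO became 2 and 33 calls in WT became 3, with median-ratio scaling and equal totals alike, and for FGO over GO in KO 24 calls became 4 with both. For FGO over GO in WT, 4 calls became 7 with a pseudocount of 0.1 (1 higher, 6 lower). No unadjusted p stands beside the counts of 0, because no test was run. With equal totals the call at GO was Eif2ak1 in place of Eif3j2. The members' median at GO over NGO turned below 0 with median-ratio scaling (-0.11 in KO and -0.13 in WT). The depth behind each value is unknown.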
